A study of Mus musculus with 2 samples.

Results

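A set of 9 genes of cytosolic nucleic acid sensing was followed in ATDC5 chondrogenic cells that expressed either GFP or A-CEBP, which binds C/EBP transcription factors in a form that cannot sit on DNA and so blocks them. The genes were Ddx58 (encoding RIG-I), Ifih1 (MDA5), Dhx58 (LGP2), Zbp1, Mavs, Sting1 (listed under its older symbol Tmem173), Trim25, Tbk1 and Ikbke. They were found as the non-control spots named for a RefSeq transcript of each gene. This gave 12 probes for the 9 genes, out of 27229 named probes for 20657 genes. All 9 genes had a probe well above background on both arrays, the scanner software's mark for a spot brighter than its surroundings, which 13860 genes met in all. Igf2bp1, which also carries Zbp1 as an older name, was left out.

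ATDC5 is a mouse chondrogenic line that makes cartilage-like matrix after a supplement of insulin, transferrin and selenite (ITS). The control line had GFP, and the other had A-CEBP, under doxycycline induction. Both lines received 2 µg/mL doxycycline for 2 days, and were then differentiated with ITS for 3 weeks. The labels do not say whether each line was 1 clone or a pool, and no probe checked either transgene. Each group was 1 sample on 1 array, so no p-value could be given, and A-CEBP and other ways in which the lines or dishes may have differed cannot be told apart.

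Cells carry receptors that recognise RNA or DNA in the wrong place or the wrong form. RIG-I and MDA5 are helicases that bind double-stranded RNA and, through their caspase recruitment domains, engage the adaptor MAVS on mitochondria; LGP2 is a relative without those domains that tunes both, and the ubiquitin ligase TRIM25 acts on RIG-I. STING is an adaptor on the endoplasmic reticulum that answers the DNA sensor cGAS, and ZBP1 binds nucleic acids in the Z-form and can start necroptosis. Both adaptors activate the kinases TBK1 and IKK-epsilon (Ikbke), which phosphorylate IRF3 and IRF7 and so switch on type I interferon. Several of the sensors are themselves induced by interferon, as part of a feed-forward loop.

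RefSeq promoter windows of the mouse assembly GRCm38.p6, from 250 bases before to 50 after the gene's start, were at hand for 6 of the 9 genes (Ddx58, Ifih1, Mavs, Trim25, Tbk1 and Ikbke). They were searched on both strands for a core of interferon regulatory factor (IRF) sites, AANNGAAA, and for the longer core of the interferon-stimulated response element (GAAA, any 2 bases, then GAAA), which always contains the shorter one. The stretches of 30 bases that hold a match are shown 5′ to 3′ on the gene's strand because they mark where these genes differ in the letters near their start, with the matches in capitals. Positions count from the start as 1, and the base before it is -1.
Ddx58, bases -69 to -40, chr4:40239865-40239894, minus strand: ctaggttcagAAACGAAActggatccccgc
Ddx58, bases -8 to 22, chr4:40239804-40239833, minus strand: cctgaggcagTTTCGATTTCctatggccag
Ifih1, bases 19 to 48, chr2:62646208-62646237, minus strand: tggagaagagAATCGAAACAGAAAccgatc
Trim25, bases -14 to 16, chr11:88999389-88999418, plus strand: tcctgttcagTTTCGATTccttcctcgctg
Ikbke, bases -142 to -113, chr1:131279676-131279705, minus strand: cagaatcctcTTTCCCTTtactgaaggggg
The longer core occurred in 2 of the 6 windows, those of Ddx58 (from base 3, on the opposite strand) and Ifih1 (from base 33), and in 3.44% of all 32851 windows, which cover 27025 genes. The shorter core occurred in 4 of the 6, against 23.9% of all windows, and Mavs and Tbk1 had no match. No window of the 6 held TTGCNNAA, searched for C/EBP factors (10.8% of all windows), GGG, any 2 bases and TTTCC, searched for NF-kB (1.63%), or TTCNNNGAA, searched for STAT factors (8.30%). Ddx58 and Trim25 held the same 8 letters at their starts, TTTCGATT, which in Ddx58 run on into the longer core. A match describes letters only. With such low shares over all windows, the lack of the C/EBP, NF-kB and STAT letters in 6 windows does not set these genes apart. Dhx58, Zbp1 and Sting1 had no window and were not searched.

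Of the 9 genes, the 4 that encode sensors were each more than 2-fold lower in the A-CEBP sample. The genes for the adaptors, the ligase and the kinases differed by at most 1.25-fold. Signal is given in intensity units as processed by the scanner software; differences are log2, A-CEBP minus GFP, after the 75th percentile of each array was subtracted. The 2-fold rule was met by 4 of the 9 genes, all lower. Across all 13860 genes, 1.7% were lower by that size and 1.26% higher (236 and 174 genes; 171 and 358 if the arrays are scaled on spike-in spots instead). The median difference was -0.33 over the 9 genes and 0.05 over all genes.

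**Figure D1:**
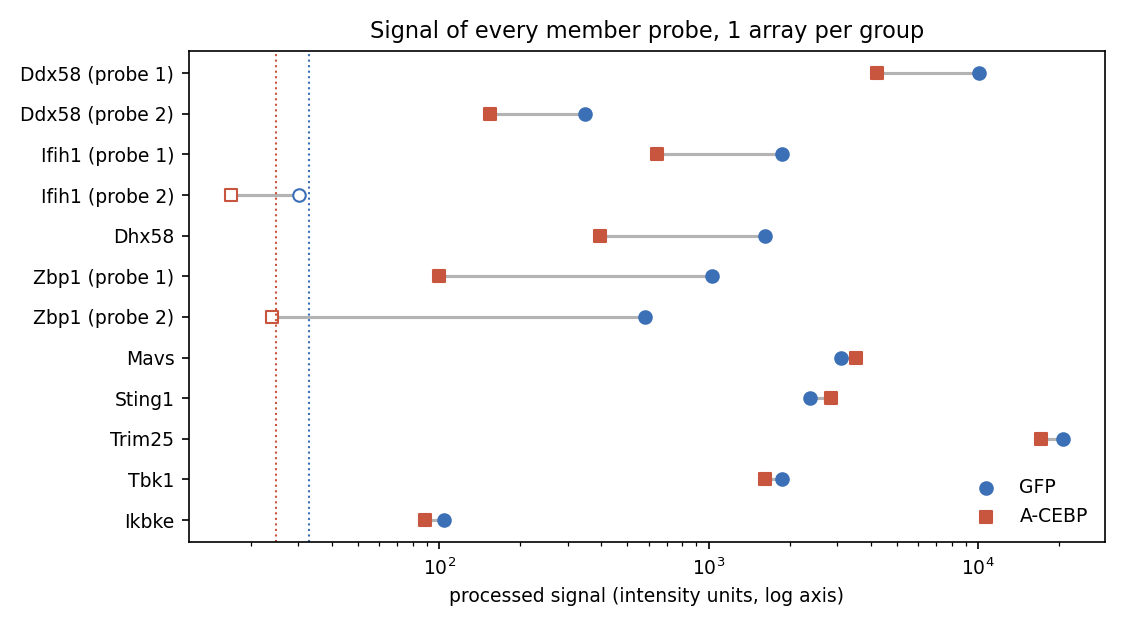
Processed signal of the 12 probes in intensity units on a log axis, 1 array per group, circles for GFP and squares for A-CEBP. Open symbols were not well above background, and dotted lines mark the lowest spot that was, 32.9 units for GFP and 24.8 for A-CEBP; the probes of Ddx58, Ifih1, Dhx58 and Zbp1 show the wide gaps.

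Among the RNA sensors, the brighter Ddx58 probe read 10077 units with GFP and 4231 with A-CEBP. It was 2.47-fold lower, a log2 difference of -1.31, with an error of 0.20 from the scanner software's error model, which covers the measurement and not the spread between cultures. The dimmer Ddx58 probe, at 348 and 155 units, differed by -1.23, so the gap between both probes was 0.08. RIG-I, its product, recognises RNA with a 5′ triphosphate end.

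Ifih1, which encodes the sensor of long double-stranded RNA, read 1875 units with GFP and 643 with A-CEBP. It was 3.03-fold lower (log2 difference -1.60, error 0.20). Its other probe, at 30.3 and 16.8 units, was not well above background on either array and gives no fold. The value for Ifih1 therefore rests on 1 probe.

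Dhx58 had 1 probe, which read 1616 units with GFP and 397 with A-CEBP. Its difference was the largest of the 3 RIG-I-like helicases, 4.23-fold lower (log2 difference -2.08, error 0.21). Each of the 3 differences was over 6 times its error. That error was near 0.20 for bright genes in general, so these ratios mostly restate the folds. Whether the 3 genes differ from one another in response cannot be tested with 1 array per group.

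Zbp1 stood furthest apart. The probe seen on both arrays read 1032 units with GFP and 99.96 with A-CEBP, 10.7-fold lower, with a log2 difference of -3.42 and an error of 0.23. The second probe, named for another transcript of the gene, read 580 units with GFP and 24.1 with A-CEBP, the latter not well above background. Against the lowest signal well above background on the A-CEBP array, it was at least 24.3-fold lower. Both probes gave the same direction, and both sizes depend on a dim A-CEBP reading.

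**Figure D2:**
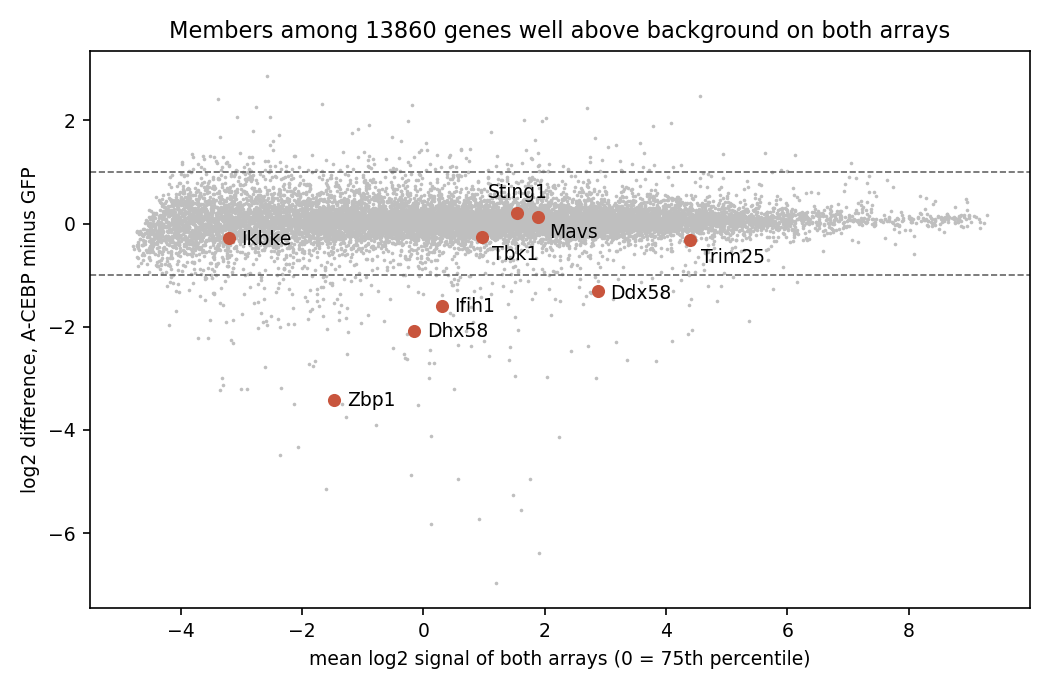
Log2 difference (A-CEBP minus GFP) against mean log2 signal for each of 13860 genes (grey), with the 9 genes in red and dashed lines at 2-fold. Ddx58, Ifih1, Dhx58 and Zbp1 lie below the lower line, and the other 5 genes lie inside the band.

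Set among all genes, 19 of 13860 had a more negative difference than Zbp1, 64 than Dhx58, 105 than Ifih1 and 155 than Ddx58. Dim genes pass a fold rule more readily, so each gene was also set beside genes whose mean signal lay within 0.5 log2 units of its own. At the level of Zbp1, 45 of 1296 genes (3.47%) were at least 2-fold lower. That share was 1.61% at the level of Dhx58, 2.13% at that of Ifih1 and 0.974% at that of Ddx58.

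Both adaptors had slightly positive values. Mavs, the mitochondrial adaptor of RIG-I and MDA5, read 3101 units with GFP and 3523 with A-CEBP, a log2 difference of 0.13 (error 0.20). Sting1, the adaptor of the cGAS branch, read 2370 and 2839 units, a difference of 0.21 (error 0.20). Neither difference was clearly larger than its measurement error, and 4765 genes of the array were higher than Mavs and 3236 than Sting1.

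Trim25, the ubiquitin ligase, read 20687 units with GFP and 17116 with A-CEBP, 1.25-fold lower (log2 difference -0.33, error 0.20). Tbk1 read 1867 and 1614 units, a difference of -0.26 (error 0.20). Ikbke, the inducible relative of Tbk1, was dim at 105 and 88.9 units and differed by -0.29 (error 0.25). All 3 values were negative by between 1 and 2 times their error, and 1187 genes of the array were lower than Trim25, 1552 than Tbk1 and 1389 than Ikbke. Each of these 5 genes had 1 probe, so no other probe checks it.

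**Figure D3:**
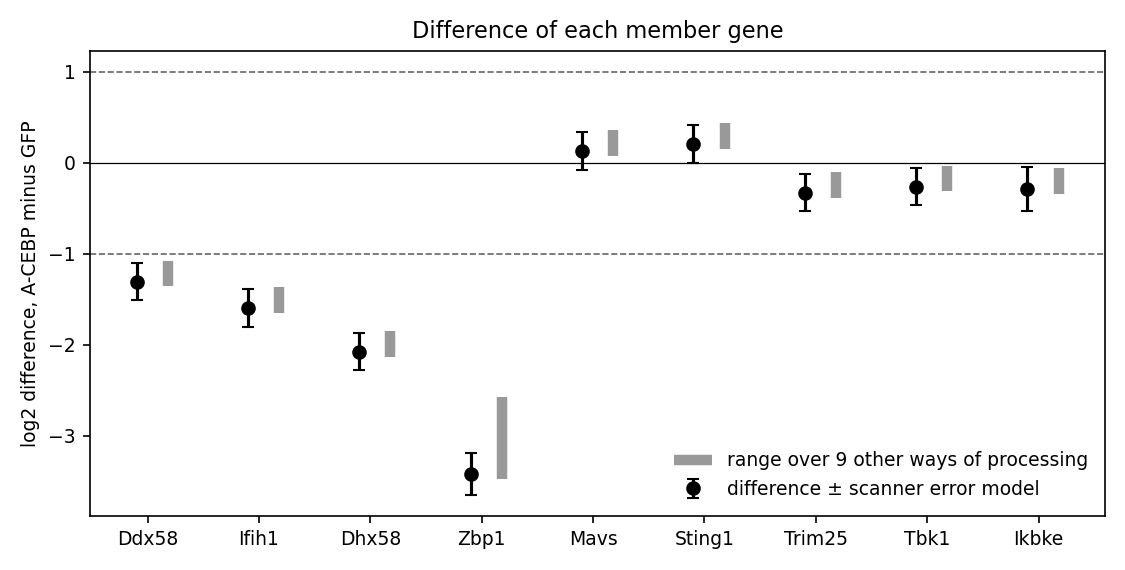
Log2 difference of each gene, A-CEBP minus GFP (black point, bar: error of the scanner software's model), beside the range over 9 other ways of processing (grey bar), with dashed lines at 2-fold. Ddx58 stays between -1.36 and -1.08 and Zbp1 between -3.47 and -2.57, while Mavs, Sting1, Trim25, Tbk1 and Ikbke stay inside the dashed lines.

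Among these 9 genes, the split by role held under each of the 9 other ways of scaling, background correction and probe choice. It did not extend to sensors as a class, since 2 of the 30 other sensors described below were at least 2-fold lower (median -0.05). With the 75th percentile scaling used throughout, the 4 sensor genes ranged from -3.42 to -1.31 with a median of -1.84. The other 5 genes ranged from -0.33 to 0.21 with a median of -0.26. Scaling on spike-in spots moved the median of all genes to 0.28. That scaling adds the same amount to every gene, so it leaves the order of the 9 genes as it was.

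Other genes of the pathway were described from lists drawn up by role. Their counts stand against 1.7% lower and 1.26% higher over all 13860 genes. Of the other cytosolic and nuclear sensors, 30 could be measured on both arrays. The 2-fold rule was met downward by 2 of the 30 and upward by 0, and their median was -0.05. These were the interferon-inducible Mndal, 6.11-fold lower (-2.61), and Ifi204, 2.46-fold lower (-1.30), both of the PYHIN family of DNA-binding proteins, whose related copies may share signal. Cgas, the DNA sensor upstream of STING, differed by -0.31, and its other probes by -0.20 and -0.04. Aim2, the inflammasome DNA sensor, was not well above background on either array.

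Among 35 adaptors, scaffolds and ubiquitin enzymes, 1 was at least 2-fold lower and 0 higher, with a median of 0.04. The 1 was Ifit3 (6.34-fold lower), which bridges MAVS and TBK1 and is also an interferon-stimulated effector. Traf3, the ligase between MAVS and the kinases, differed by -0.26, and the TBK1 scaffolds Tank, Azi2 and Tbkbp1 by -0.31, 0.10 and 0.27. Rnf135, also known as Riplet, another ligase of RIG-I, differed by 0.06. Trim14 was seen only with A-CEBP, with a bound of at least 2.52-fold higher.

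Among 34 negative regulators, 4 were at least 2-fold lower and 0 higher, with a median of -0.003. Isg15, a ubiquitin-like modifier, was 6.23-fold lower, and Usp18, which removes it and restrains the interferon receptor, 5.51-fold lower. Nlrc5 was 3.09-fold and the cytokine signalling inhibitor Socs3 2.34-fold lower, and with spike-in scaling the count was 3, without Socs3. Nlrx1, a mitochondrial NLR protein, differed by 0.04 (other probe 0.25), and Nlrp4c was seen only with A-CEBP, with a bound of at least 3.08-fold higher.

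At the end of the pathway, 6 of 17 transcription factors and coactivators (Crebbp and Ep300) were at least 2-fold lower and 0 higher. Irf3, the constitutive target of TBK1, differed by 0.06, whereas Irf7, its interferon-inducible relative, was 5.73-fold lower (-2.52). Stat2 was 2.76-fold, Irf9 2.19-fold and Relb 2.19-fold lower. With spike-in scaling, the count was 2. Ifnb1, the gene for interferon beta, was not well above background on either array, with scaled values of -6.58 and -7.00 against lowest seen values of -4.73 and -5.19. Of 14 interferon genes with a probe, 8 were well above background on both arrays, at scaled GFP values of -4.01 to -2.74 and with differences between -0.31 and 0.34. Interferon alpha genes are near-identical copies, so single values are uncertain.

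None of 25 nucleases and editing enzymes that limit the cell's own nucleic acids was 2-fold apart (median -0.05). Adar, which edits double-stranded RNA and limits both MDA5 and ZBP1, differed by -0.34 (other probe -0.95), and the DNA exonuclease gene Trex1 by -0.55. None of 29 genes of STING trafficking and turnover was 2-fold apart, with a median of 0.13. The same held for 11 genes of the endosomal toll-like receptor branch, which senses nucleic acids outside the cytosol, with a median of 0.04.

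Of 13 partners of ZBP1 in cell death, Birc3 was 2.03-fold lower and the list's median was -0.16. Birc3 fell under the 2-fold rule without scaling and with quantile, spike-in and normexp processing. Ripk3, the kinase that ZBP1 engages, was not well above background on either array, and Mlkl, the executioner of necroptosis, differed by -0.50.

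**Figure D4:**
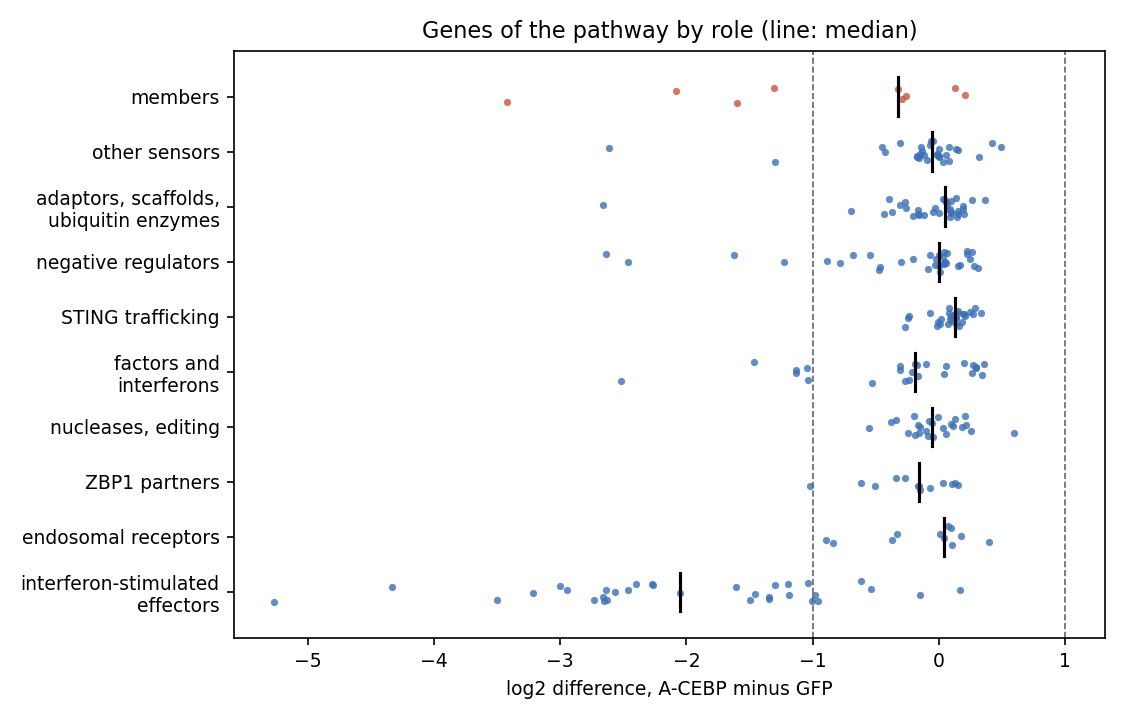
Log2 differences (A-CEBP minus GFP) of genes well above background on both arrays, by role, 1 point a gene, black lines at the median and dashed lines at 2-fold. The medians of the sensor, adaptor, regulator, trafficking and nuclease lists lie between -0.05 and 0.13, and that of the interferon-stimulated effectors at -2.05; some genes are in more than 1 list.

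Counting each gene once and leaving out the 9 and the endosomal receptor list, the pathway lists held 186 genes, with a median of -0.003. Of these, 14 (7.53%) were at least 2-fold lower and 0 higher, against 1.7% and 1.26% of all 13860 genes. Leaving out those that are also in the effector list, the count was 11 of 183. In the list of interferon-stimulated effectors, 27 of 33 genes were at least 2-fold lower and 0 higher, with a median of -2.05. The effectors ranged from -5.27 to 0.17, and 32 of the 33 were negative. The upper end was Isg20 alone. That range takes in every one of the 9 genes but Sting1, Mavs only through Isg20. The range alone therefore cannot tell the 9 genes apart. Trim25, Tbk1 and Ikbke lay above every effector but Isg20 and Ifit2 (-0.15), and the next effector down was Ifi27 (-0.54). The 4 sensor genes had a median of -1.84, and the other 5 of the 9 genes a median of -0.26.

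The cultures held the markers of their label: 13 of 14 chondrocyte markers were well above background on both arrays. Of these 13, 4 were at least 2-fold higher with A-CEBP and 0 lower (median 0.63). Over all 13860 genes, 1.26% were higher and 1.7% lower, and these shares also stand beside the other markers below. Of 22 leukocyte and macrophage markers with a probe, 10 were well above background on both arrays. Among these, S100a8 was 3.39-fold, Cd14 1.79-fold and Lyz2 1.77-fold lower, in the direction of the sensor genes. Siglech differed by 0.07, Itgam by 0.23 (other probe -0.57), Csf1r by -0.14 (other probe 0.36), Nkg7 by 0.37, Cd3e by 0.20, Coro1a by 0.18 and Laptm5 by 0.38. A further 11 were seen on neither array, among them Ptprc, Adgre1, Tyrobp, Aif1, Itgax, Cx3cr1, Klrb1c, Mrc1, Ms4a1 and S100a9. The summed signal of the 10 was 116928 units with GFP and 129725 with A-CEBP, but Siglech alone made up 79.7% of the former. Without Siglech and Itgam, the sums were 4892 and 4885 units. Of 9 fibroblast and endothelial markers measured on both arrays (median -0.20), the fibroblast marker Pi16 was 3.40-fold lower and Cd34 2.69-fold higher. The endothelial markers Kdr, Vwf and Pecam1 were well above background on both arrays. They differed by 0.09 (other probe -0.39), -0.58 and -0.20. Cdh5, Emcn and Tek, also endothelial markers, were seen on neither array. The summed signal of the 9 markers was 29801 units with GFP and 35427 with A-CEBP. The part of these cell types in the differences of the sensor genes was not tested. In bulk RNA, fewer cells of a type and less RNA per cell cannot be told apart.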

How the data were processed

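Cy3-labelled RNA of 1 GFP and 1 A-CEBP culture was measured on Agilent arrays with 1 colour, per the labels. Per the file headers, the deposited intensity is linear, and Agilent Feature Extraction 10.10.1.1 had subtracted the background and removed trends across each array, with no scaling between arrays. The authors' deposited series table holds the same intensity times 1.24 (GFP) and 1.15 (A-CEBP), with column medians of 70.9 and 67.4; it is linear and uncentred, and the choice of constants is unstated. With controls left out, 59305 spots remained; 54.6% were well above background with GFP, 58.0% with A-CEBP, and 0 were saturated.

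The log2 signal minus each array's 75th percentile was used, without 293 outlier spots. Spots of a probe were averaged, and a gene took its brightest probe of those seen on both arrays. For a probe seen on 1 array, the bound compares it with the higher of the dim reading and the lowest value well above background on the dim array. Probes were named through RefSeq transcripts (GRCm38.p6 table; 27229 of 55671 probes). Error came from the scanner's error model (median 0.20), replicate spots (SD of the difference 0.12, 287 probes) and other probes of a gene (0.19, 3601 genes); the number of arrays limits the precision. With 1 array per group there was no test. Members, lists, motifs and alternatives were chosen with earlier results of these data known. The named genes were the 9, up to 4 genes a list at least 2-fold apart, up to 4 with a bound of at least 2-fold, and a fixed set including Cgas, Irf3, Ifnb1 and Adar. Single markers of other cell types were picked for naming with their values in view. The calculation was tested on simulated data. Python 3.11.15, pandas 2.3.3, R 4.3.3 and limma 3.58.1 were used.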

Additional observations from a re-analysis of the deposited data

How the results depend on the processing

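The alternatives were no scaling, quantile, percentile over seen probes, cyclic loess, spike-in scaling, normexp background, the authors' deposited values, outlier spots kept and the median of probes. Normexp used the median spot signal in place of the planned mean signal. Under all 9, the 4 sensor genes stayed at least 2-fold lower (Dhx58 from -2.13 to -1.85, Ifih1 from -1.65 to -1.37), and the count of 4 also held without the detection filter and at 1.5-fold. Scaling on the 8 spike-in probes seen moved Mavs to 0.36, Sting1 to 0.44, Trim25 to -0.097 and Tbk1 to -0.033, with no change of sign. It gave 358 genes at least 2-fold higher, and normexp 97, against 174. Scaling by a constant (none, spike-in, the deposited values) moves every gene alike, so the list medians near 0 that changed sign with these settings did so by construction. Beyond those, the regulators' median changed sign with normexp, and those of adaptors and endosomal receptors with cyclic loess; the cause was not tested. No paired analysis was possible because each group held 1 array. Dim readings limit the sizes for Zbp1, which moved to -2.57 with normexp.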
